A study of Mus musculus with 96 samples.

Results

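The 7 genes described here encode transcription factors that direct CD4+ T cells into helper and regulatory lineages: Tbx21 and Stat4 (type 1), Gata3 and Maf (type 2), Bcl6 (follicular helper), and Foxp3 and Ikzf2 (regulatory). They were listed by name, with earlier results of these data known. All 7 were among the 16593 genes measured, by 11 of the 25697 probes. The brightest probe of each gene was used throughout, and its level is the log2 intensity above the median of its array. The study followed collagen induced arthritis, a model in which mice are immunised with collagen and develop joint inflammation. Male mice of the BQ background (C57BL/10.Q/rhd, here wild type) were set beside mice of the same background with mutated Ncf1 (C57BL/10.Q/rhd.Ncf1m1J), which encodes a cytosolic subunit of the NADPH oxidase that makes reactive oxygen species. Whole spleen and whole blood were taken 15 or 44 days after immunisation, with no culture, stimulation or sorting of cells. Each of the 8 groups of tissue, genotype and day held 12 arrays of 12 mice, 6 from experiment I and 6 from experiment II, which differed in collection and RNA kits, and all 48 mice gave both tissues. All groups shared the immunisation and the removal of globin transcripts, and no group of unimmunised mice is analysed here.

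Helper lineages are set by cytokines that act through STAT proteins on lineage factors. Interleukin 12 signals through STAT4 and, with interferon gamma, raises T-bet, the product of Tbx21, while interleukin 4 raises GATA3, and c-Maf, the product of Maf, drives interleukin 4 and interleukin 10. BCL6 is a repressor required for follicular helper T cells and germinal centre B cells, FOXP3 defines regulatory T cells, and Helios, the product of Ikzf2, is found in many of them. In whole tissue these transcripts come from other cells too: T-bet and STAT4 are made by NK cells, c-Maf by macrophages and BCL6 by B cells and neutrophils.

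Ncf1 was read first as a check on the labels. At day 15 the spleens of wild-type mice had a level of 0.97 ± 0.21 (SD, n = 12) and those of mutated mice 0.07 ± 0.15, with all 12 mutated arrays below the lowest wild-type array. At day 44 it was 0.86 ± 0.33 and 0.04 ± 0.27, and 10 of 12 mutated arrays lay below all wild-type arrays. Over both days the difference was -0.86 ± 0.06 (SE) in spleen (limma's moderated linear model, adjusted p = 1.90e-14) and -0.55 ± 0.07 in blood (1.13e-06). Transcripts of exocrine pancreas stood out in 6 spleen arrays, whose mean over 14 such genes exceeded the median array by over 1 log2 unit. Of these, 4 were wild-type and 1 was a mutated array of experiment I, and 1 was a mutated array of experiment II. All 3 genes of the CD3 complex, which marks T cells, were well above the array median in both tissues, whereas Cd4 was near it, at 0.38 in spleen and 0.06 in blood.

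On the GRCm38.p6 assembly RefSeq places Stat4 at chr1:51987106-52107189, Ikzf2 at chr1:69531207-69687351, Gata3 at chr2:9857078-9887953 and Maf at chr8:115703253-115706894. Tbx21 lies at chr11:97098007-97115331, Bcl6 at chr16:23965050-23988866 and Foxp3 at chrX:7579676-7595243. The promoters of 4 genes are shown because their transcripts were all lower in mutated spleen, as given further on. Each is the stretch from 250 to 51 bases before a RefSeq start, 5′ to 3′ on the gene's strand, from the GRCm38.p6 table of RefSeq promoters, which held windows for 5 of the 7 genes. Capitals mark matches, on either strand, to motifs named for the members' own families. For GATA factors this was AGATAA, for the T-box half-site GGTGTG, for the palindrome shared by STAT proteins and BCL6 TTCNNNGAA, for forkhead factors TGTTTA, for the Ikaros family TGGGAA and for the MAF half-site TGCTGA.
Tbx21: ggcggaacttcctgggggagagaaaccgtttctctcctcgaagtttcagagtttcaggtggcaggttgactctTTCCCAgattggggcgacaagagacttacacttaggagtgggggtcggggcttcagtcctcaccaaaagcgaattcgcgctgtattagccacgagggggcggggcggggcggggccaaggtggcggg
Stat4: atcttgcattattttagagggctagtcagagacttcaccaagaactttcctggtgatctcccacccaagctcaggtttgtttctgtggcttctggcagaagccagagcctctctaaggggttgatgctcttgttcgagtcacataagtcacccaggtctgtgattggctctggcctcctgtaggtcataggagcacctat
Gata3: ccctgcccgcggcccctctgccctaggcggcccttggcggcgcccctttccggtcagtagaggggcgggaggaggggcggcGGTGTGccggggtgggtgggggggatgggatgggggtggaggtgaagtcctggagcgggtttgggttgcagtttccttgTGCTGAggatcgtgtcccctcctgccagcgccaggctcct
Bcl6: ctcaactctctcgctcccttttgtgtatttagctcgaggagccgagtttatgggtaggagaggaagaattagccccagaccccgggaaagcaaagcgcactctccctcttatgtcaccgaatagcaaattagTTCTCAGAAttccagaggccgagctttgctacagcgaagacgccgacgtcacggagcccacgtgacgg
The Tbx21 stretch (chr11:97115382-97115581, minus strand) held 1 Ikaros match, which began 177 bases before the start, a motif found in 17.9% of 32851 windows of this length. The Stat4 stretch (chr1:51986898-51987097, plus strand) held none of the 6 motifs, which says only that these letters are not in this window. The Gata3 stretch (chr2:9878651-9878850, minus strand) had 1 T-box half-site at 169 bases and 1 MAF half-site at 90 bases, found in 13.4% and 13.1% of windows. It lies inside the span of the longest RefSeq Gata3 model (chr2:9857078-9887953). The Bcl6 stretch (chr16:23988903-23989102, minus strand) had 1 match to the STAT and BCL6 palindrome, at 118 bases, a motif in 5.76% of windows. No match overlapped another, and no motif was shared by these 4 stretches. Gata3 had the highest GC content of the 4, at 71.5%, against 60% for Tbx21, 53.5% for Bcl6 and 49.5% for Stat4, with a median of 51.5% over all windows. A match is a description of the letters and not a shown binding site.

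In spleen, Stat4, Gata3, Tbx21 and Bcl6 were lower in mutated than in wild-type mice over both days, by between 1.16 and 1.34 times, while Foxp3, Maf and Ikzf2 did not pass the test. The 4 called members are to be read against 10.5% of all genes called in either direction and 4.88% called lower. The median difference was -0.22 over the 7 members and -0.01 over all genes. A gene counted as called where its limma p, from a fit with genotype, day and experiment and adjusted by Benjamini-Hochberg across the whole array, was under 0.05. In whole tissue, fewer cells of a type and less of a transcript per cell cannot be told apart.

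Stat4, the signal transducer of interleukin 12, had the largest difference of the 7. Its spleen level in wild-type mice at day 15 ran from 2.85 over a median of 3.28 to 3.73, and in mutated mice from 2.25 over 2.94 to 3.43. At day 44 wild-type arrays ran from 2.34 over 2.91 to 3.12 and mutated arrays from 2.00 over 2.40 to 2.84. The genotypes overlapped at both days, yet all 12 mutated arrays at day 44 lay below the wild-type median. The difference was -0.42 ± 0.08 over both days (adjusted p = 2.02e-04), -0.47 ± 0.12 at day 44 (0.00852) and -0.38 ± 0.12 at day 15 (0.0696). A second Stat4 probe, 0.66 above the array median, gave -0.26 ± 0.08 over both days (0.0375 in a fit over all probes), and the dimmest, 0.29 below the median, gave -0.03 ± 0.03 (0.699). The deviations of the second probe from its group means did not follow those of the brightest one in spleen (r = -0.004 over 48 arrays), but did in blood (r = 0.58).

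Tbx21, the type 1 lineage factor, had wild-type spleen levels of 0.45, 0.84 and 1.40 (lowest, median and highest) at day 15 and mutated levels of 0.25, 0.69 and 1.24. At day 44 wild-type arrays had 0.22, 0.86 and 1.37, and mutated arrays -0.09, 0.40 and 1.03. The groups overlapped, and its level was 0.58 higher in experiment II than in experiment I. With experiment in the fit, the difference was -0.22 ± 0.06 over both days (adjusted p = 0.00649), -0.29 ± 0.08 at day 44 (0.0209) and -0.14 ± 0.08 at day 15 (0.506).

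Gata3, the type 2 lineage factor, lay close to the array median, and so just above the middle of all probes. Its wild-type levels at day 15 were -0.13, 0.34 and 0.68, against -0.05, 0.18 and 0.50 in mutated mice. At day 44 they were 0.16, 0.39 and 1.07 against -0.19, 0.06 and 0.28, with 8 of 12 mutated arrays below the lowest wild-type array. The difference was -0.25 ± 0.05 over both days (adjusted p = 8.15e-04), -0.38 ± 0.08 at day 44 (8.90e-04) and -0.12 ± 0.08 at day 15 (0.585). Maf, the other type 2 factor, lay below the array median in all 8 groups, with group means between -0.37 and -0.31. Its spleen difference was -0.04 ± 0.03 (adjusted p = 0.589, 95% interval -0.10 to 0.03).

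Bcl6, the follicular helper factor, had wild-type levels of 3.54, 4.08 and 4.76 at day 15, against 3.44, 3.85 and 4.52 in mutated mice. At day 44 wild-type arrays ran from 4.04 over 4.28 to 4.66 and mutated arrays from 3.44 over 3.89 to 4.40. Of the 12 mutated arrays at day 44, 8 lay below the lowest wild-type array. The difference over both days was -0.27 ± 0.09 (adjusted p = 0.0356), and in a fit of both tissues with the mouse as a block it was no longer called (-0.27 ± 0.11, 0.121). At day 44 alone it was -0.38 ± 0.12, which did not pass (0.0583), and at day 15 it was -0.15 ± 0.12 (0.720). In experiment II alone the day 44 difference passed, at -0.49 ± 0.14 (0.0350), among 6.07% of all genes called there.

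Of the regulatory T cell factors, Foxp3 in wild-type spleen was at 0.88 ± 0.19 (SD) and in mutated spleen at 0.81 ± 0.24 on day 15, and at 1.04 ± 0.21 and 0.86 ± 0.23 on day 44. Its difference over both days was -0.12 ± 0.05, with a 95% interval from -0.23 to -0.01, and did not pass over all genes (adjusted p = 0.163). The other Foxp3 probes, at -0.19 and 0.10, gave -0.04 ± 0.03 and -0.09 ± 0.04 (0.661 and 0.215). The mean of the 3 Foxp3 probes passed over both days, at -0.08 ± 0.03 (0.0361). Ikzf2 lay below the array median in every group, with means between -0.34 and -0.19, and its difference was 0.01 ± 0.03 (0.888, interval -0.05 to 0.08).

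By day, 3 members were called lower at day 44, where 5.19% of all genes were called and 2.1% were called lower. At day 15 limma called 0 members among 2.47% of all genes called, with 1 member and 2043 genes at an unadjusted p under 0.05. This does not show that the genotype difference grew with time. The test of genotype by day called 0 members and 0% of all genes, with 1 member and 363 genes at an unadjusted p under 0.05. That member was Gata3, with a difference of differences of -0.26 ± 0.11 (unadjusted p = 0.0202, adjusted p = 1.00).

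**Figure D1:**
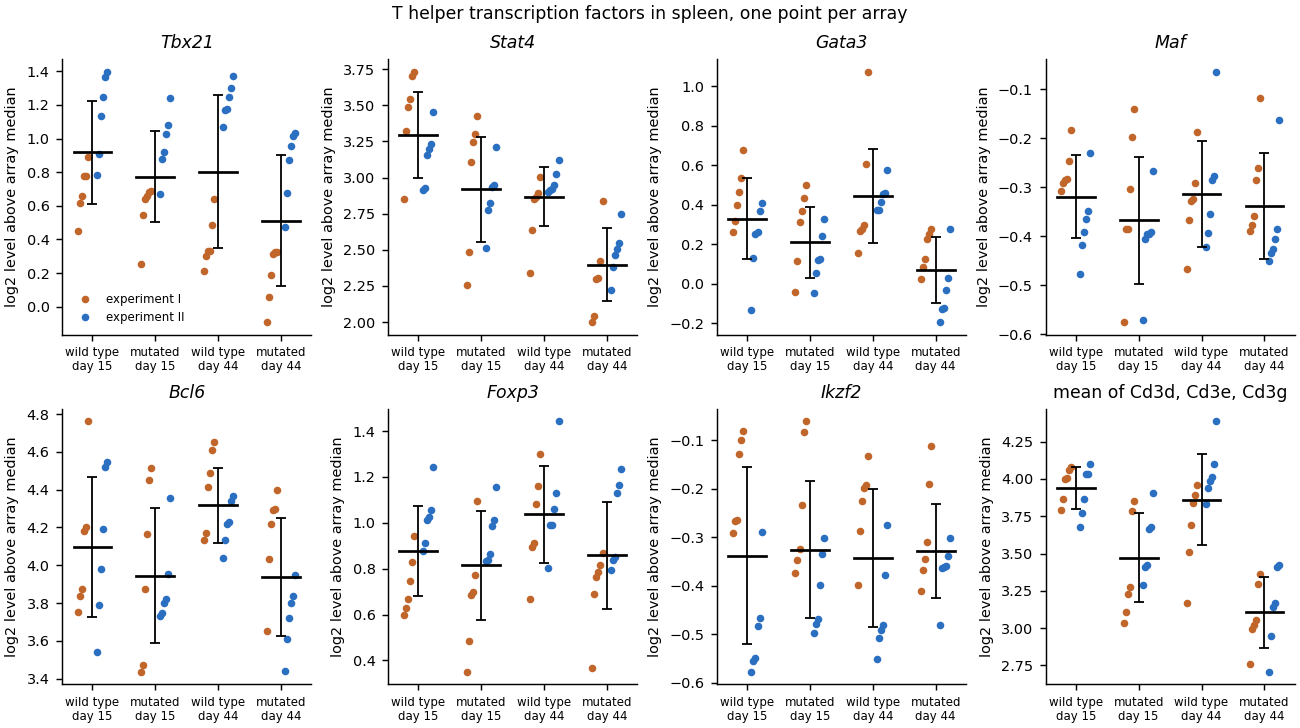
Log2 level above the array median in spleen for the 7 transcription factors and the mean of the CD3 genes, one point per array (orange, experiment I; blue, experiment II), with the mean and SD of each group of 12. The mutated mice at day 44 lay below wild type in Stat4, Gata3 and the CD3 mean in all 12 arrays against the wild-type median, and Maf and Ikzf2 lay below the array median in all spleen arrays.

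At day 44 of experiment II the genotypes separated in spleen for most members. All 6 mutated arrays lay below all 6 wild-type arrays for Gata3, Tbx21, Bcl6 and Stat4, as did the CD3 mean, and 1.71% of all genes did the same. For Gata3 the highest mutated array was at 0.28 and the lowest wild-type array at 0.37. For Stat4 these were 2.74 and 2.90, for Bcl6 3.95 and 4.04, and for Tbx21 1.03 and 1.07, so the gap was narrow in each case. In the other sets of 6 against 6 arrays no member separated the genotypes in this direction, with 0.313% of all genes at day 44 of experiment I, 0.163% at day 15 of experiment I and 0.139% at day 15 of experiment II.

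Fitted alone over both days, experiment II gave 4 called members among 7.94% of all genes called. Experiment I gave 0 by limma among 3.5% of all genes, with Stat4, Gata3, Tbx21 and Foxp3, and not Bcl6, at an unadjusted p under 0.05. How many of all genes reached that unadjusted threshold in experiment I was not counted. For Stat4 the first experiment gave -0.46 ± 0.14 and the second -0.39 ± 0.07, and for Gata3 they gave -0.22 ± 0.09 and -0.27 ± 0.06. Tbx21 was at -0.16 ± 0.07 and -0.28 ± 0.08, and Bcl6 -0.19 ± 0.14 and -0.34 ± 0.10. The 4 genes had the same sign in both, with larger errors in experiment I for Stat4, Gata3 and Bcl6. Foxp3 was at -0.17 ± 0.08 and -0.07 ± 0.07. A term for genotype by experiment, added after the data were seen, called 0 members and 0% of all genes in spleen, with 1 member (Ikzf2) at an unadjusted p under 0.05. All genes at that unadjusted threshold were not counted for this term either. Without the 6 arrays that held pancreatic transcripts the 4 members were still called over both days, among 8.94% of all genes, with adjusted p from 0.00127 for Stat4 to 0.0434 for Bcl6.

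**Figure D2:**
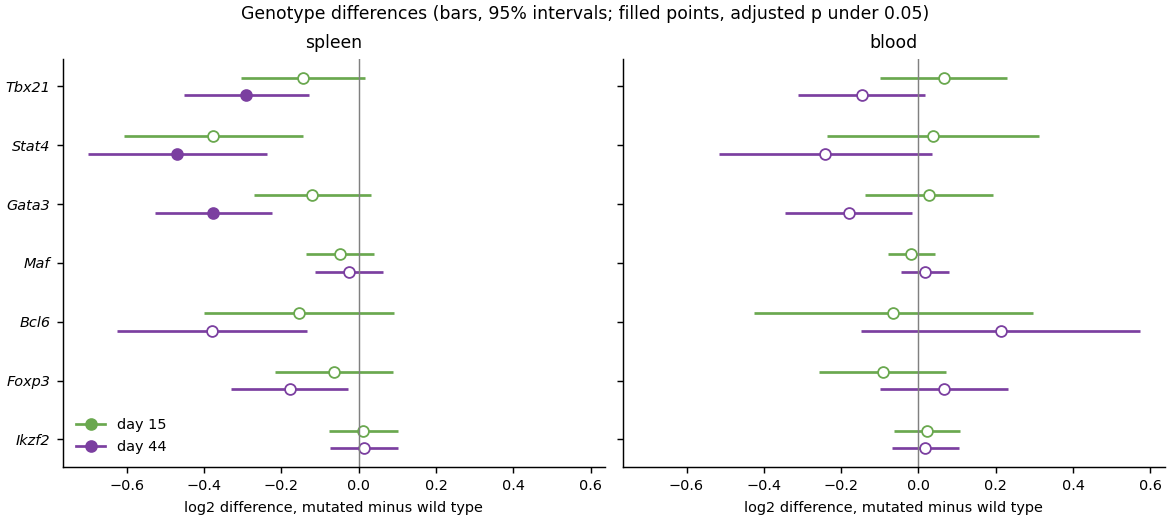
Log2 difference of mutated minus wild type for each transcription factor in spleen and blood at day 15 and day 44, with 95% intervals from limma; filled points passed an adjusted p under 0.05. In spleen at day 44 Tbx21, Stat4 and Gata3 passed, and in blood none did.

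Most of the listed T cell markers were lower in mutated spleen. Cd3d fell by 0.62 ± 0.09, Cd3e by 0.52 ± 0.09 and Cd3g by 0.69 ± 0.11 over both days (adjusted p = 1.82e-06, 5.91e-05 and 1.15e-05), each by more than any of the 7 factors. Of 10 other T cell markers 9 fell, against the 4.88% of all genes called lower, with a median of -0.56, among them Cd2 (-0.62 ± 0.08), Cd28 (-0.57 ± 0.08) and Cd27 (-0.60 ± 0.09). Cd4 fell by 0.25 ± 0.06 and Cd8b1 by 0.93 ± 0.10, while Cd8a did not pass (-0.02 ± 0.03).

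Set against the array's mean of Cd3d, Cd3e and Cd3g, all 7 members were higher in mutated spleen over both days, and so was nearly the whole array: 99.2% of all genes were called on this scale. The relative difference of Stat4 was 0.19 ± 0.08 (adjusted p = 0.0204). That of Ikzf2, whose dim probe was at 0.01 ± 0.03 as measured, was 0.62 ± 0.07 (2.33e-10), close to the value of a gene that did not move. The median was 0.39 over the members and 0.61 over all genes, so the members' count repeats the background. Stat4 relative to CD3 ran from -1.01 over -0.64 to -0.27 in wild-type and from -1.02 over -0.65 to 0.21 in mutated mice at day 15, with medians nearly equal. At day 15 the test called 6 of 7 members (all but Stat4, 0.09 ± 0.11, adjusted p = 0.414) among 94.6% of all genes, and at day 44 all 7 among 99%. The call of Bcl6 at day 15 (0.31 ± 0.14, adjusted p = 0.0292) held in 2 of 9 alternative settings.

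When the CD3 mean entered the fit as a covariate in place of being subtracted, 0 of 7 members were called by limma over both days, among 0.0121% of all genes. The count of 0 called is thus that of the array as a whole. At an unadjusted p under 0.05 there was 1 member, and how many of all genes reached that threshold was not counted. Stat4 was then at -0.05 ± 0.12, Gata3 at -0.04 ± 0.08, Tbx21 at -0.06 ± 0.09 and Bcl6 at -0.10 ± 0.14, each with an adjusted p of 0.999. Ikzf2, at 0.10 ± 0.05, stayed positive. The positive differences relative to CD3 were not seen with the covariate, where the other 6 estimates lay within 2 SE of 0. The CD3 mean itself differed by genotype, with all 12 mutated spleen arrays below its wild-type median at both days. Covariate and genotype thus overlap, and the SE of Stat4 was 0.12, against 0.08 as measured. Few calls can follow from this overlap, so no conclusion is drawn from their absence. With Cd3e alone subtracted, Stat4 was at 0.10 ± 0.13 (0.455), and with the mean of the 10 T cell markers subtracted at 0.10 ± 0.07 (0.203), so its relative call was lost.

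**Figure D3:**
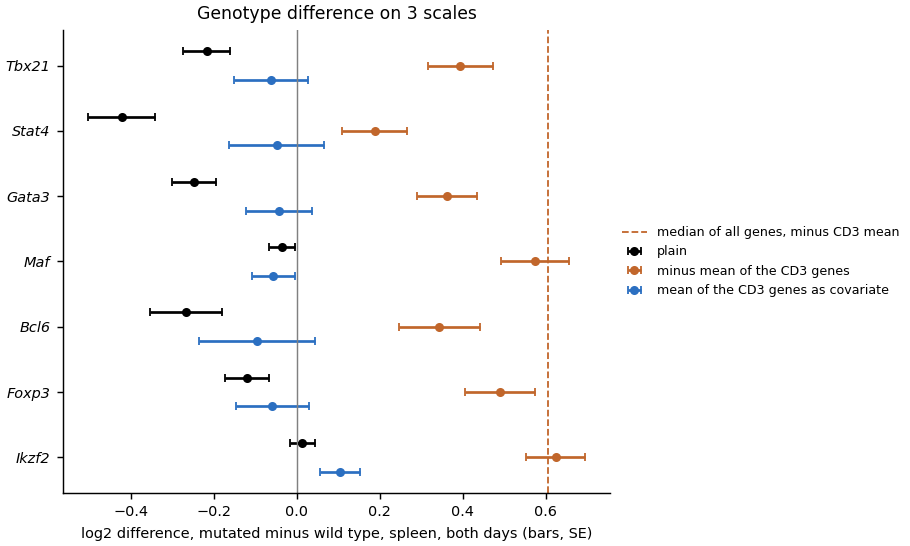
Log2 difference of mutated minus wild type in spleen over both days (bars, SE) as measured, after subtraction of the CD3 mean, and with the CD3 mean as a covariate; the dashed line is the median of all genes after subtraction. All members moved right on subtraction, and with the covariate 6 of 7 estimates lay within 0.10 of 0 on the negative side.

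Partner genes of each lineage were counted in the same spleen comparison. Of 12 measured type 1 partners, 1 rose (Ifng, 0.12 ± 0.04) and 1 fell (Cxcr3, a chemokine receptor induced by T-bet, -0.23 ± 0.06), with a median of -0.02. Of 12 type 2 partners 2 rose and 2 fell (median -0.03): Nfil3 rose by 0.41 ± 0.08 and Gfi1 by 0.26 ± 0.08, both also transcription factors of myeloid cells, and Stat6, the transducer of interleukin 4, fell by 0.23 ± 0.05. Of 11 type 17 partners 2 fell, Il6st and Il6ra, the chains of the interleukin 6 receptor (-0.17 ± 0.05 and -0.24 ± 0.08).

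Of 12 follicular helper partners 5 fell, with a median of -0.09. They included Cxcr5, the receptor that guides cells into follicles (-0.42 ± 0.07), Sh2d1a, which encodes the adaptor SAP (-0.31 ± 0.05), and Btla, an inhibitory receptor (-0.45 ± 0.09). Cxcr5 and Btla are also made by B cells. Of 15 regulatory T cell partners 3 fell (median -0.08): Nt5e, which encodes CD73 (-0.37 ± 0.07), Tnfrsf18, which encodes GITR (-0.26 ± 0.06), and Gpr83 (-0.42 ± 0.10). Of 17 other T cell transcription factors 10 fell and 0 rose, with a median of -0.37, led by Satb1 (-0.43 ± 0.07), Lef1 (-0.45 ± 0.07) and Ets1 (-0.46 ± 0.08). Of 17 paralogues of the 7 genes 3 rose and 1 fell, among them Gata1, the erythroid GATA factor (0.60 ± 0.11), Ikzf5 (0.16 ± 0.05) and Stat6. The 10.5% of all genes called is the background of each count, and no list was tested as a list.

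Markers of other cells moved with the genotype in the same arrays. Of 9 B cell markers 7 fell (median -0.41), with Fcer2a at -0.87 ± 0.12, and their mean level at day 44 ran from 2.81 to 3.96 in wild-type and from 2.34 to 3.46 in mutated mice. Of 11 NK markers 4 fell, with Klrd1 at -0.57 ± 0.07 and Ctsw at -0.64 ± 0.11; their mean at day 44 ran from 1.13 to 1.38 in wild-type and from 0.96 to 1.19 in mutated mice. Neutrophil and erythroid markers went the other way: 12 of 14 and 8 of 9 rose, with medians of 1.51 and 0.98. The mean of the neutrophil markers at day 44 ran from 2.36 to 4.18 in wild-type and from 4.10 to 5.20 in mutated spleen. None of 10 macrophage and monocyte markers and none of 5 germinal centre B markers passed. The part of these shifts in the differences of Stat4, Tbx21, Gata3 and Bcl6 was not tested.

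From day 15 to day 44, averaged over genotypes, Stat4 and Tbx21 fell in spleen, among 22.9% of all genes called and 11.4% called lower. Stat4 fell by 0.47 ± 0.08 (adjusted p = 4.07e-04) and Tbx21 by 0.19 ± 0.06 (0.0132), and the other 5 members did not pass. The fall of Stat4 was that of its brightest probe. Its second probe gave -0.11 ± 0.08 and the dimmest 0.02 ± 0.03 (adjusted p = 0.441 and 0.760 in a limma fit over all probes). The order of the 4 group medians of Stat4 was wild type at day 15, mutated at day 15, wild type at day 44 and mutated at day 44, where the middle 2 groups overlapped throughout. Cd3d and Cd3g fell with day too, by 0.37 ± 0.09 and 0.46 ± 0.11, and Cd3e did not pass (0.16 ± 0.09). Of the NK markers 6 of 11 fell with day, and of the B cell markers 8 of 9; their part in the fall of Stat4 and Tbx21 was not tested.

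For Tbx21 the day difference differed between the experiments. In experiment I, where 30.8% of all genes were called, Tbx21 fell by 0.35 ± 0.07 (adjusted p = 7.61e-04). In experiment II, where 0.00603% were called, it was at -0.02 ± 0.08 (0.977). Stat4 was at -0.66 ± 0.14 (0.00127) and -0.28 ± 0.07 (0.184). The day by experiment term, added after the data were seen, was 0.33 ± 0.10 for Tbx21 (adjusted p = 0.0269) and 0.38 ± 0.16 for Stat4 (0.0918), and 14.9% of all genes passed it. Without the 6 arrays with pancreatic transcripts, where 5.77% of all genes were called, Tbx21 lost its call (-0.14 ± 0.06, 0.146), and Stat4 kept it (-0.43 ± 0.09, 0.0168). Relative to the CD3 mean 5 members were higher and Stat4 lower at day 44 (-0.25 ± 0.08, adjusted p = 0.00790), among 74.2% of all genes called. The median was 0.22 over the members and 0.23 over all genes, so the higher values are those of the array as a whole. These values also depend on the setting. Over 9 alternatives Stat4 ran from -0.64 to -0.02, called in 6, and Gata3 from -0.18 to 0.45, called in 3.

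In blood no member passed the test between genotypes or days. The limma fit called 0 of 7 at day 15, at day 44 and over both days, among 0.145%, 1.43% and 1.13% of all genes. At an unadjusted p under 0.05 there were 0, 1 and 0 members, and 944, 1811 and 1462 of 16593 genes. The day difference called 0 of 7 with 0 unadjusted, among 0.0783% of genes, and genotype by day 0 of 7 with 0 unadjusted, among 0.00603%. Relative to the CD3 mean the counts were again 0, among 0.0362% at day 15, 0.904% at day 44, 0.922% over both days and 0% for day. At an unadjusted p under 0.05 there were 2 members at day 44, with 1266 of all genes, and 0 members in the others.

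The blood intervals limit what was detectable. Stat4 had blood medians of 2.94 and 2.90 in wild-type and mutated mice at day 15 and of 3.08 and 2.73 at day 44, and a difference over both days of -0.10 ± 0.10 with an interval from -0.30 to 0.09. Gata3 ran from -0.18 over 0.10 to 1.07 in wild-type and from -0.29 over -0.02 to 0.36 in mutated blood at day 44, a difference of -0.18 ± 0.08 (adjusted p = 0.374). In experiment II alone that difference was -0.26 ± 0.06 and passed (0.0120), among 5.56% of all genes called. Bcl6 was at 0.07 ± 0.13 over both days, with an interval from -0.18 to 0.33. Its spleen estimate, -0.27 ± 0.09, lies outside that interval but has its own error, and the test between tissues, given next, did not call Bcl6. Tbx21 was at -0.04 ± 0.06 and Foxp3 at -0.01 ± 0.06. Among other cells in blood, 7 of 14 neutrophil markers rose in mutated mice (median 0.78), with Lcn2 at 2.05 ± 0.26, and none of the 3 CD3 genes passed.

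Whether the genotype difference itself differed between the tissues was tested on the spleen minus blood difference of each mouse. It called 0 of 7 members, among 4.11% of all genes. At an unadjusted p under 0.05 there were 4 members and 2194 of 16593 genes. Stat4 was at -0.32 ± 0.13 (adjusted p = 0.183), Bcl6 at -0.34 ± 0.16 (0.326), Tbx21 at -0.18 ± 0.07 (0.236) and Gata3 at -0.17 ± 0.07 (0.227). The calls in spleen and their absence in blood are thus not shown to differ.

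Spleen and blood arrays were normalised apart by the submitters, as the values show, so levels in the tissues are comparable only as distances from each tissue's own array median. On that scale 88.6% of all genes differed between the tissues. Tbx21 was higher in spleen by 0.45 ± 0.04 (in 45 of 48 mice), Foxp3 by 0.22 ± 0.04 (39 of 48) and Gata3 by 0.19 ± 0.04 (40 of 48), and Ikzf2 was lower by 0.13 ± 0.02 (higher in 8 of 48). These 4 members passed, and Stat4, Bcl6 and Maf did not (0.07 ± 0.06, -0.02 ± 0.08 and -0.02 ± 0.02). By rank among the probes of a tissue, Foxp3 and Ikzf2 went the other way. Foxp3 was brighter than 69.0% of probes in spleen and 71.5% in blood, and Ikzf2 than 22.45% and 19.15%. Tbx21 (67.0% and 63.3%) and Gata3 (58.7% and 53.9%) kept their direction. The sign for Foxp3 and Ikzf2 thus depends on the scale.

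For Bcl6 and Stat4 the experiments had means of opposite sign. Bcl6 was 0.32 ± 0.74 (SD) higher in spleen in experiment I, in 17 of 24 mice, and in experiment II its mean was -0.35 ± 0.37, with 3 of 24 mice higher in spleen. Stat4 was at 0.27 ± 0.70 in the first (15 of 24 higher) and -0.13 ± 0.33 in the second (6 of 24). Tbx21 was higher in spleen in 22 of 24 mice of experiment I and 23 of 24 of experiment II. Blood RNA was isolated with other kits than spleen RNA in each experiment, and tissue and kit cannot be told apart.

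**Figure D4:**
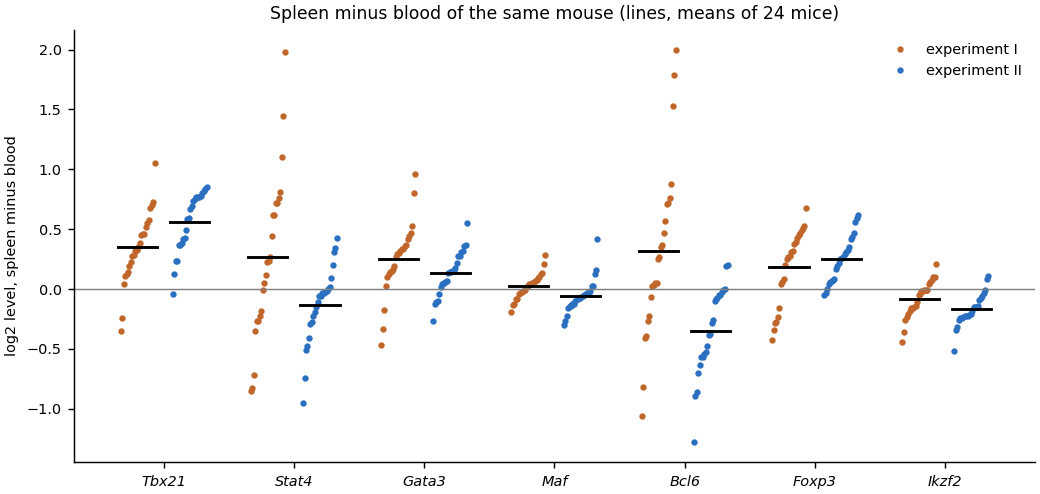
Spleen minus blood of the same mouse in log2 level above the array median, one point per mouse, by experiment (24 mice each; lines, means). Tbx21 lay above 0 in 45 of 48 mice, and the means of Bcl6 and Stat4 had opposite signs in experiments I and II.

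How the 7 transcripts varied from array to array within groups was described by correlations of deviations from group and experiment means, over 48 arrays of a tissue that share library preparation and scale. In spleen Stat4 varied with Cd3d (r = 0.72) and Cd3g (0.62) and not with Cd3e (-0.24), whereas Bcl6 and Foxp3 varied with Cd3e (0.72 and 0.64) and not with Cd3d (-0.02 and 0.04) or Cd3g (-0.16 and -0.32). The 3 CD3 chains, parts of 1 receptor complex, themselves did not all vary together in spleen. There r was 0.70 for Cd3d and Cd3g, 0.18 for Cd3d and Cd3e and -0.05 for Cd3e and Cd3g. In blood the same pairs stood at 0.93, 0.82 and 0.80. They were at 0.98, 0.84 and 0.83 in blood of experiment I and lower, at 0.61, 0.65 and 0.57, in experiment II.

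The experiments differed in which chain stood apart. Among the 24 spleen arrays of experiment I r was 0.85 for Cd3d and Cd3g and -0.16 for Cd3e and Cd3g, Stat4 had r of 0.77 with Cd3g and -0.40 with Cd3e, and Bcl6 had -0.44 and 0.83. In experiment II Cd3d and Cd3e went together (0.85) and Cd3g less so (0.28 and 0.34), and Bcl6 and Stat4 both had a positive r with all 3 chains. Foxp3 kept opposite signs there, with r of 0.51 with Cd3e and -0.25 with Cd3g, and Tbx21 had 0.37 with Cd3d and -0.23 with Cd3g. The first principal component of all genes held 44.9% of the within-group variance of spleen in experiment I. Stat4 had r of 0.87 with it, Cd3g 0.72, Cd3e -0.63 and Bcl6 -0.79. In experiment II it held 27.6%, and Stat4 had r of 0.54, Cd3g -0.63, Cd3e 0.35 and Bcl6 0.20. The spleen values given relative to the CD3 mean thus rest on chains that did not all vary together in either experiment.

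**Figure D5:**
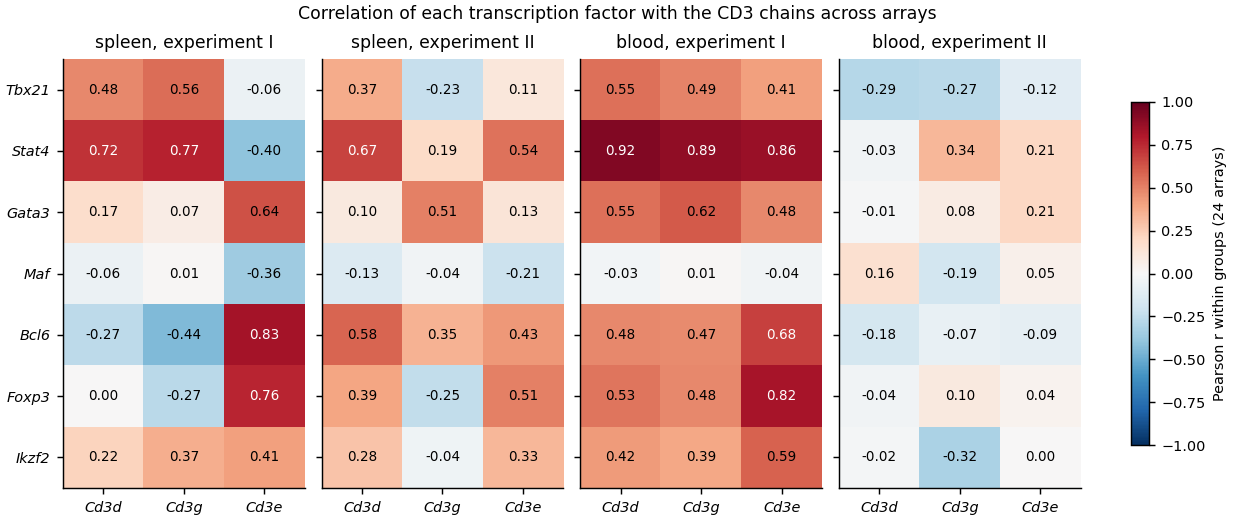
Pearson correlation of within-group deviations of each transcription factor with Cd3d, Cd3g and Cd3e, by tissue and experiment (24 arrays each; red positive, blue negative). Stat4 and Bcl6 had opposite signs in spleen of experiment I, and all values in blood of experiment II lay between -0.32 and 0.34.

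The genes whose pattern was most like each member, over the 48 arrays of a tissue and at r of at least 0.6, were as follows. Stat4 was followed in spleen by Gimap7, a lymphocyte GTPase (r = 0.89), Cers5 and Elp2 (0.88 each), and in blood by Rpl23a (0.89), Arhgap45 and Rpl24 (0.86 each). Its r with the B cell marker mean was 0.75 in spleen and 0.77 in blood, and with the NK marker mean 0.60 and 0.77, in the range of its r with the CD3 chains. In blood of experiment II alone the r of Stat4 with Cd3d, Cd3e and Cd3g was only -0.03, 0.21 and 0.34. Tbx21 was followed in blood by Klrg1 (0.76) and Klre1 (0.68), receptors of NK and effector T cells, and H2-Q7 (0.67), and its r with the mean of the NK markers was 0.73. In spleen it was followed by Eml4 (0.86), Kcnip3 and Inpp5d (0.83 each), and its r was 0.54 with NK and 0.69 with B cell markers.

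Gata3 was closest to Prkcb (0.70), Ythdf1 (0.69) and Manea (0.67) in spleen and to 4933427D14Rik (0.75), Cdk2 and Smc6 (0.73 each) in blood. Bcl6 was closest to Snrk (0.83), 1700030K09Rik (0.81) and Adam17 (0.80) in spleen and to Acot10 (0.86), Lbr (0.84) and Rab35 (0.83) in blood. Foxp3 was closest to Vars2 (0.79), Ptpdc1 and Plcb2 (0.77 each) in spleen and to Synrg (0.82), Atp6v1f and Senp2 (0.79 each) in blood. Maf reached 0.60 only with Sf3b4 in spleen, and Ikzf2 only with Mmp13 (0.63) and Gps2 (0.60) in blood. Among the members the highest r was 0.53 in spleen, for Tbx21 and Stat4, and 0.62 in blood, for Foxp3 and Bcl6. In blood of experiment I the first principal component of all genes held 55.5% of the within-group variance. Stat4 had r of 0.85 with it, Foxp3 0.74, Bcl6 and Ikzf2 0.72 each, Tbx21 0.59, Gata3 0.37 and Maf -0.14. In blood of experiment II it held 16.4%, and the members' r lay between -0.24 and 0.36. How far the blood correlations over both experiments follow this component was not tested.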

How the data were processed

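RNA of 96 arrays (Illumina bead arrays, 48 spleen and 48 blood) was amplified and labelled, per the labels' protocols. The deposited table holds linear intensity for 25697 probes. The submitters' processing notes name limma without a version. By their distribution the values were quantile normalised within each tissue (medians 82.2 in spleen and 73.4 in blood). The background correction used is not given in the sources used here. Groups came from the labels, and replicates were separate mice.

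From these values log2 was taken, probes were named through Entrez identifiers (GRCm38.p6 gene table; 23978 of 25697 probes with 1 gene, 0 with several and 1719 with none), and the brightest probe was kept for each of 16593 genes. Each tissue was fitted in R 4.3.3 with limma 3.58.1 (lmFit, eBayes; 4 groups plus experiment), with Benjamini-Hochberg adjustment over all genes of a comparison and a threshold of 0.05. The fits were repeated on values minus the mean of Cd3d, Cd3e and Cd3g, and on the spleen minus blood difference of each mouse. Mice were paired by experiment and mouse number in the sample titles. The median correlation of a mouse's spleen and blood deviations was 0.095, and it was over 0.1 in 23 of 48 mice. The values thus give little check of the pairing. The fit was tested on simulated data. Arrays have no read depth, and their number limits the precision. The highest correlation between arrays of a tissue was 0.996, so none was a copy. The 7 members and 17 other gene lists were chosen with earlier results of these data known. The text names all members and their probes, Ncf1, the CD3 genes, up to 3 called genes of a list with the smallest adjusted p, and up to 3 genes most like a member at r of at least 0.6; Cd4, Cd8a and Cd8b1 make up 1 list and are all given. Alternatives concerned the probe, background, scaling, filter, experiment, array weights, eBayes options, pancreatic arrays, mouse block and T cell reference. Terms of genotype and day by experiment were added after the data were seen.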

Additional observations from a re-analysis of the deposited data

Results flagged for a closer look

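The day difference of Tbx21 in spleen differed between the experiments. The interaction of day and experiment was 0.33 ± 0.10 (SE; experiment II minus experiment I, limma, adjusted p = 0.0269), where Tbx21 was at -0.35 ± 0.07 in experiment I and at -0.02 ± 0.08 in experiment II. The same term passed for 2478 of 16593 genes, so Tbx21 was one of many, and its cause was not tested.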

How the results depend on the processing

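In spleen over both days the number of members called was 4 and kept within 1.5 times of that under the other settings run, apart from 0 in experiment I alone and 2 with no experiment term. By gene, Bcl6 was called in 9 of 12 settings (lost also with the mouse as a block, adjusted p = 0.121), Tbx21 in 10, Gata3 and Stat4 in 11, and Foxp3 in 1 (mean of all probes, 0.0361). Bcl6 at day 44 was called in 2 of 12, with genes above the array median and in experiment II alone. At day 44 (3 called) it was 0 in experiment I alone, where 52 of 16593 genes were called. At day 15 (0 called) it was 1, Stat4, with array weights, with genes above the array median alone and with the mean of all probes. Where no share of all genes is given for a setting, a change in the members' count cannot be told from one of the whole array. For day 44 against day 15 (2 called) it was 0 in experiment II alone, 1 with no experiment term and 1 without the arrays with pancreatic transcripts. In blood, experiment II alone gave 1 called member at day 44 and 1 for genotype by day (both Gata3), where 5.56% and 4.16% of all genes were called, against 1.43% and 0.00603% with both experiments, and for genotype by tissue 1 (Bcl6, -0.45 ± 0.11, adjusted p = 0.0133; 6.07% of all genes).

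Relative to CD3, the covariate gave 0 called members over both days, 0 at day 15, 0 at day 44 and 1 for the day difference in spleen, among 0.0121%, 0.00603%, 0% and 4.17% of all genes. The CD3 covariate overlaps with genotype, as given above. Over both days it turned the sign of Stat4 (-0.049), Gata3 (-0.043), Tbx21 (-0.062), Bcl6 (-0.097), Foxp3 (-0.060) and Maf (-0.057). Cd3e alone as reference gave 0 at day 15 and 2 for day, and the T cell marker list 3 for day and 1 in blood at day 44 (Bcl6). Experiment I alone gave 3 at day 44, experiment II alone 0 at day 15 and 0 for day, and removal of the pancreatic arrays 1 for day. The shares of all genes called with these references and subsets are not given here, so the counts are not read as results about the members. Signs also turned for uncalled values: in experiment I alone for Ikzf2 (-0.049 in spleen, -0.027 in blood), and in experiment II alone, in blood, for Foxp3 (0.070) and Maf (0.026). The cause of these changes was not tested. A fit of 1 experiment alone has 24 arrays per tissue in place of 48. A joint fit of both tissues, blocked by mouse, had a consensus correlation of 0.016 between tissues and ended the call of Bcl6 alone among the 4 over both days, and changed no count by over 1.5 times; the tissue comparison without the mouse block changed no count either. Low signal over background limits Maf, Ikzf2 and the dimmer Foxp3 and Stat4 probes. It limits Gata3 too, whose probe was 0.26 above the array median in spleen and 0.07 in blood.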
